A study of Mus musculus with 3 samples.

Results

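The major histocompatibility complex (MHC) genes of the mouse, called H2, and 6 genes that serve them were followed in RNA from isolated brain vessels. Members were all genes whose symbol starts with H2-, together with B2m, Tap1, Tap2, Tapbp, Cd74 and Ciita. Of 51 such genes in the annotation, 42 had a row in the deposited tables, out of 29917 named genes in all. The other 9 (H2-Bl, H2-D1, H2-K2, H2-M10.5-ps1, H2-Pa, H2-Pb, H2-Q3, H2-T-ps and H2-T10) could not be matched to a row by identifier and were not analysed here. Of the 42 genes, 39 lie on chromosome 17, where the H2- genes span 3.51 Mb. B2m lies on chromosome 2, Ciita on chromosome 16 and Cd74 on chromosome 18.

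The 3 groups compared were each a single library of vessels pooled from 3 male mice aged 3 months, with no further treatment. The first was wild type on the C57BL6 background (C57BL6 WT), the second wild type on a mixed background (C57BL6-BALB/c WT) and the third deleted for Cx30 in all tissues (Cx30-/-). Cx30, encoded by Gjb6, is a gap junction protein of astrocytes. The sample labels place the Cx30-/- library on the C57BL6 background, whereas the methods of the study place it on C57BL6/Balbc, so each comparison with this library is given against both WT libraries. It held 145 reads of the E alpha gene H2-Ea-ps, described below, of which C57BL6 WT held 0, and background and genotype cannot be told apart in the comparison of these 2 libraries. With 1 library per group, no difference could be set against a spread between replicates and no test was made. The intervals below are exact binomial 95% intervals of the ratio of counts and cover the sampling of reads only.

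Transcript counts summed to between 50375426 and 60725557 per library, and they were divided by size factors of 0.9258 to 1.1452 to give normalized counts. Gjb6 itself had 2899 counts in C57BL6 WT, 2246 in C57BL6-BALB/c WT and 96 in Cx30-/-, which follows the genotype labels. All 10 endothelial and all 10 mural markers examined had reads in every library, and so did markers of neurons, astrocytes and choroid plexus. The preparations therefore held RNA of cells other than vessel cells, and in such bulk samples fewer cells of a type and less RNA per cell cannot be told apart.

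MHC class I molecules are a heavy chain paired with beta-2 microglobulin (B2m). They display peptides that the proteasome makes in the cytosol and that the transporter Tap1-Tap2 and its partner Tapbp bring to the heavy chain. Class II molecules are pairs of an alpha and a beta chain, A or E in the mouse, whose assembly needs the invariant chain Cd74 and whose genes need the transactivator Ciita. In the brain, class I is carried by the endothelium and class II mainly by macrophages at the vessels and borders. C57BL6 mice carry the b haplotype of H2 and BALB/c mice the d haplotype. As background, the E alpha gene of the b haplotype is not transcribed because part of its promoter is deleted, while the d haplotype expresses it.

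The sequences that matter most are those that decide whether a read could be given to a gene at all. Reads were 50 bases long and those matching more than 1 place were removed. None of the 50-base windows of the gene annotated as H2-Ea-ps, the E alpha gene, occurs in a transcript of another gene, and the same holds for H2-Aa, H2-Ab1 and H2-Eb1. A coding stretch of its exon 2 (GRCm38 chr17:34343790-34343909, minus strand, 120 bases) lies within the counted transcript as annotated. It is shown because none of its 50-base windows occurs in a transcript of another gene. It is given without capitals, as no single part of it is picked out.
H2-Ea-ps: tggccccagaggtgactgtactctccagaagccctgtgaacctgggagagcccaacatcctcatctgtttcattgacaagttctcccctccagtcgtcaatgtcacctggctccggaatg
Class I genes share part of their windows, and the closest match was picked as an example. It is the first coding window of H2-Q10 with the fewest differences, summed over H2-K1, H2-D1, H2-Q2 and H2-Q4. It lies in exon 4, which encodes the conserved immunoglobulin-like domain of the heavy chain. The same 50 bases stand in H2-Q10 (chr17:35473145-35473194, plus strand), H2-K1 (chr17:33997449-33997498, minus strand), H2-D1 (chr17:35265846-35265895, plus strand) and H2-Q2 (chr17:35344817-35344866, plus strand). In H2-Q4 (chr17:35382920-35382969, plus strand) 2 bases differ, shown in capitals.
H2-Q10: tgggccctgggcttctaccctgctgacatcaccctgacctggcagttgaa
H2-Q4: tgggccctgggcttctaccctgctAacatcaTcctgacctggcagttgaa
A 50-base read of this stretch cannot be given to H2-Q10, H2-K1, H2-D1 or H2-Q2 alone. Whether further genes hold the stretch is not shown here. By the reference transcripts, 8.79% of the windows of H2-K1 occur unchanged in another gene, and 42.0% lie within 2 mismatches of another H2 gene. The corresponding shares were 11% and 35.0% for H2-Q10, 36.8% and 78.3% for H2-Q6 and 44.7% and 91.5% for H2-T22. H2-Aa and H2-Ea-ps had none of either kind. These windows are those of the annotated transcripts, whose length matched the counted row within 1 base for 18 of the 42 genes. They were searched for in transcripts and not in the genome, and genes overlapping the one examined were left out.

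Of the 42 genes, 26 reached 50 normalized counts in at least 1 library. The other 16 stayed below that minimum in all libraries, with at most 44.1 normalized counts. H2-M10.1, H2-M10.4, H2-M10.6, H2-M11 and H2-Q5 had no read in any library. H2-Ob, a subunit of the H2-O inhibitor of class II loading that is typical of B cells, had 41, 21 and 42 counts in C57BL6 WT, C57BL6-BALB/c WT and Cx30-/-, and its partner H2-Oa had 7, 1 and 8. H2-DMb2 had 13 to 16 counts, H2-M10.2 had 10 to 19, and the remaining H2-Eb2, H2-M1, H2-M10.3, H2-M10.5, H2-M2, H2-M9 and H2-T3 had at most 7.

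**Figure D1:**
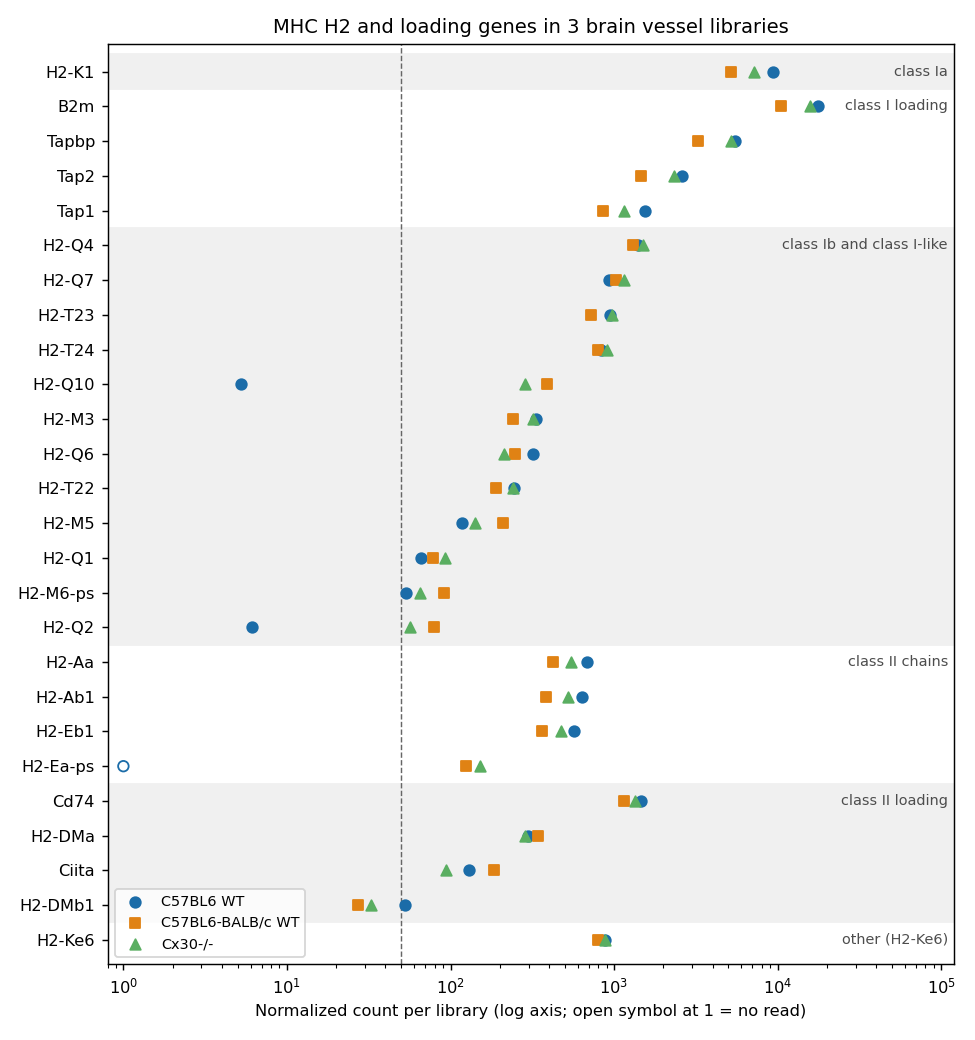
Normalized count of the 26 genes that reached the minimum in at least 1 library (horizontal log axis), by role and library. Each symbol is 1 library, the dashed line marks 50 normalized counts, and the open circle at 1 stands for H2-Ea-ps without a read in C57BL6 WT. H2-Q10 at 5.2 and H2-Q2 at 6.1 in C57BL6 WT lie apart from their other libraries.

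Per kilobase of transcript, B2m was the most abundant of the genes in each library, at 20600 normalized counts per kb in C57BL6 WT, 12100 in C57BL6-BALB/c WT and 18400 in Cx30-/-. H2-K1, a classical class I heavy chain, followed with 5850, 3260 and 4510 per kb, and Tapbp with 2010, 1180 and 1880. The class II chains H2-Aa, H2-Ab1 and H2-Eb1 had between 329 and 621 normalized counts per kb. B2m made up 34.3% to 37.8% of the normalized counts of all 42 genes. H2-D1, the other classical heavy chain of the b haplotype, is among the genes without a matched row.

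Between the wild type libraries, 3 of the 26 genes were at least 2-fold higher in C57BL6-BALB/c WT and 0 were at least 2-fold lower (11.5%). Over all 14791 genes past the count minimum, 3.43% were past 2-fold in either direction, 1.41% higher and 2.02% lower. The 3 genes were H2-Ea-ps, H2-Q10 and H2-Q2. Without genes whose row shares its place with another H2- gene or with 2410017I17Rik, 1 was past 2-fold, H2-Ea-ps. The like share over all genes was not taken. Of the 23 genes within 2-fold, 15 had an interval below 0, 4 had an interval above 0 and 4 had an interval that held 0. Such intervals narrow as counts rise, and the share of all genes with an interval clear of 0 was not taken. The median log2 ratio of the 26 genes was -0.36, with 17 below 0 and 9 above, while that of all genes was 0.0.

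The E alpha gene, H2-Ea-ps (ENSMUSG00000036322, GRCm38 chr17:34341959-34344645, minus strand, annotated as a polymorphic pseudogene), had 0 counts in C57BL6 WT, 115 in C57BL6-BALB/c WT and 145 in Cx30-/-. C57BL6 WT was the only library without a read of it, and both others had over 100 counts. Set against a floor of 3 counts in C57BL6 WT, H2-Ea-ps was at least 47.4-fold higher in C57BL6-BALB/c WT and at least 58.1-fold higher in Cx30-/-. With the sampling of its own reads included, the 95% interval of the log2 ratio began at 5.25 and at 5.54. Between Cx30-/- and C57BL6-BALB/c WT its log2 ratio was 0.29 (95% interval, -0.07 to 0.66). Reads covered 99.3% of the 686 bases of its row in C57BL6-BALB/c WT and 99.4% in Cx30-/-, at a mean depth of 8.44 and 10.6 reads per covered base. Its level per kb was 0.515 of that of H2-Eb1, the beta chain with which it pairs, in C57BL6-BALB/c WT and 0.479 in Cx30-/-. An unnamed longer row at the same place, which shares these reads, had 0, 157 and 204 counts.

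Only 3 of the 29917 genes had no read in C57BL6 WT and at least 50 normalized counts in both of the other libraries. No gene had the same pattern with C57BL6-BALB/c WT or with Cx30-/- as the library without a read (0 genes each). Besides H2-Ea-ps they were Gm8909, a predicted gene within the H2 region (GRCm38 chr17:36164443-36168537), and Prl, the pituitary hormone prolactin on chromosome 13. Gm8909 had 0, 111 and 104 counts in the same order, and 75.3% and 78.9% of its row had no read in C57BL6-BALB/c WT and Cx30-/-. Prl had 0, 684 and 78 counts. This list was drawn up after the values were seen.

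H2-Q10 (ENSMUSG00000067235, chr17:35470089-35474563, plus strand), known as a soluble class I molecule that the liver secretes, had 6 counts in C57BL6 WT, 361 in C57BL6-BALB/c WT and 271 in Cx30-/-. Its log2 ratio to C57BL6 WT was 6.22 (5.08 to 7.67) in C57BL6-BALB/c WT and 5.76 (4.62 to 7.22) in Cx30-/-. The reads did not spread over the gene as those of H2-Ea-ps did. They covered 18.2%, 21.2% and 27.6% of its 1473 bases in the 3 libraries, so that the 361 reads of C57BL6-BALB/c WT lay on 313 bases at a mean depth of 57.7, while the 6 reads of C57BL6 WT lay on 268 bases at 1.12. The median gene with at least 50 normalized counts in every library had 6.44% of its bases without a read in C57BL6-BALB/c WT, against 78.8% for H2-Q10.

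H2-Q2, another class Ib gene (ENSMUSG00000091705, chr17:35342242-35346762, plus strand), gave a similar picture at lower counts, with 7 counts in C57BL6 WT, 73 in C57BL6-BALB/c WT and 54 in Cx30-/-. Its log2 ratios to C57BL6 WT were 3.69 (2.57 to 5.05) and 3.21 (2.07 to 4.59). Again most of the row was bare, since 72.2% of its 1099 bases in C57BL6-BALB/c WT and 62.2% in Cx30-/- had no read. A second row of H2-Q1 that lies in the span of H2-Q2 had 3, 50 and 39 counts, and the row of H2-Q10 shares its span with 2410017I17Rik and with an unnamed row of 2, 361 and 268 counts. H2-Q10 and H2-Q2 share part of their 50-base windows with other class I genes (see the exon 4 window above), and alleles of another haplotype were not in the reference to which the reads were matched. Whether the reads on these rows came from the named genes was not tested.

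**Figure D2:**
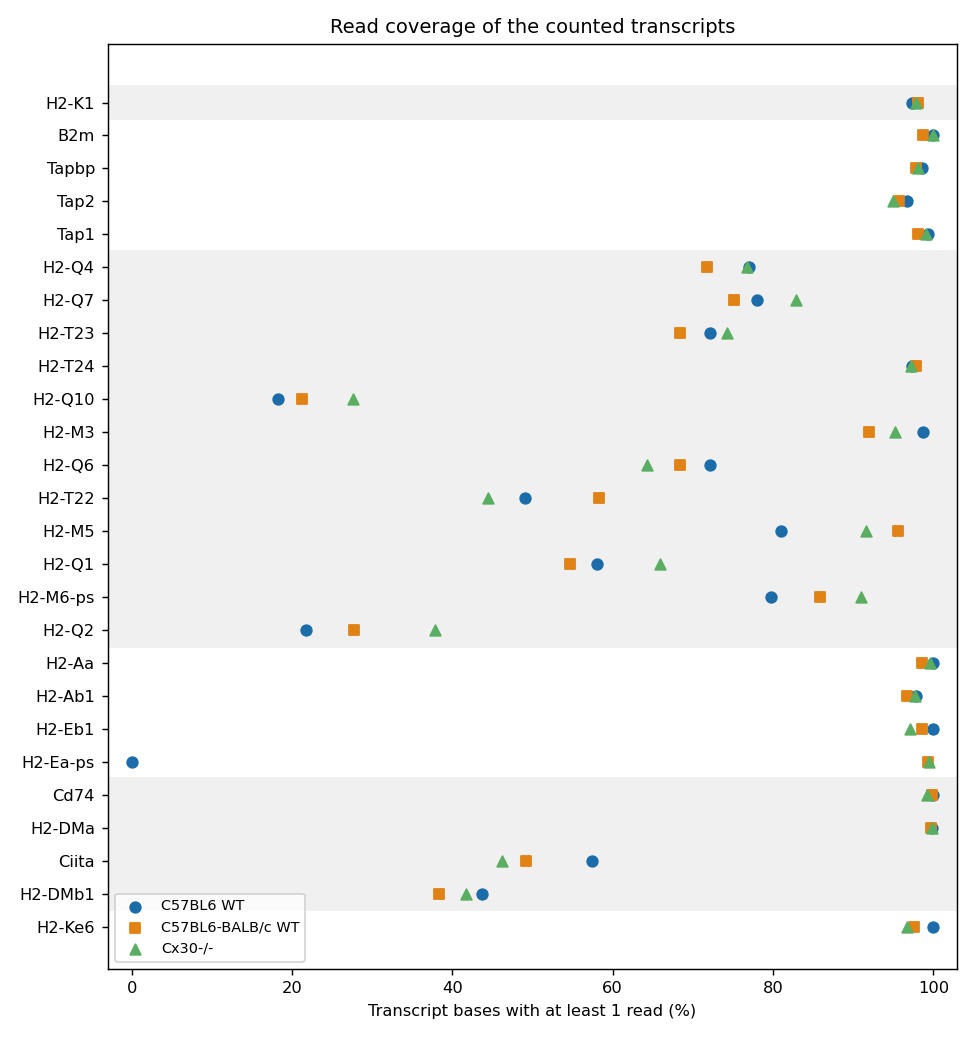
Share of the bases of each counted transcript that held at least 1 read (horizontal axis, %), by library, for the 26 genes. H2-Ea-ps goes from 0.0% in C57BL6 WT to 99.3% and 99.4% in the other libraries, whereas H2-Q10 stays between 18.2% and 27.6% in all of them.

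The tables also give, for each transcript, the number of bases without a read. Among the 22 genes with at least 50 normalized counts in every library, a larger share of bases lacked a read in C57BL6-BALB/c WT than in C57BL6 WT in 17 (77.3%), as in 55.2% of all 13987 such genes and 52.6% of 76 other protein-coding genes of the H2 region. The median difference was 1.25 percentage points for the 22 genes, 0.22 for all genes and 0.09 for the neighbours. For Cx30-/- against C57BL6 WT the shares were 63.6% of the 22 genes and 58.6% of all genes. The bare share also moves with depth, and the 22 genes themselves had a lower median mean depth in C57BL6-BALB/c WT (17) than in C57BL6 WT (32.1). H2-M3, which presents N-formylated peptides, went from 1.33% bare in C57BL6 WT to 8% in C57BL6-BALB/c WT and 4.84% in Cx30-/-. H2-M5 moved the other way, from 19.0% to 4.47% and 8.42%.

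The classical class I heavy chain and its loading genes were all lower in C57BL6-BALB/c WT than in C57BL6 WT, within 2-fold. For H2-K1 (chr17:33996017-34000347, minus strand) the normalized count was 9342.5 in C57BL6 WT, 5207.2 in C57BL6-BALB/c WT and 7199.6 in Cx30-/-. B2m (chr2:122147686-122153083, plus strand) had 17679.1, 10432.8 and 15848.0. C57BL6-BALB/c WT was the lowest library and C57BL6 WT the highest for both. Alleles of another haplotype were not in the reference, and whether reads of H2-K1 were lost through this was not tested. The rows of H2-K1 and B2m share their places in the tables with those of Gm7030 (9001, 4231 and 5962 counts) and Patl2, as Tap2 does with Gm15821, so that reads may count for both. The log2 ratio of C57BL6-BALB/c WT to C57BL6 WT was -0.84 for H2-K1 (-0.89 to -0.79) and -0.76 for B2m (-0.80 to -0.73). The peptide transporter gave the same order, with 1548.2, 858.7 and 1154.0 normalized counts for Tap1 and 2603.0, 1466.8 and 2336.2 for Tap2. Tapbp, the chaperone tapasin, had 5518.7, 3243.6 and 5164.5. The 4 loading genes had a median log2 ratio of -0.80 between the wild type libraries, of -0.16 between Cx30-/- and C57BL6 WT and of 0.64 between Cx30-/- and C57BL6-BALB/c WT.

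Genes of the antigen presentation pathway outside the H2 family, 23 of 24 with a row, had a median log2 ratio of -0.25 between the wild type libraries. Of these, 0 were past 2-fold higher and 1 lower, 19 lay below 0 and 4 above. Psmb9, an immunoproteasome subunit encoded next to Tap1, was the 1 gene past 2-fold, with 443.6, 218.2 and 365.1 normalized counts and a log2 ratio of -1.02 (-1.27 to -0.79) in C57BL6-BALB/c WT. Psme1, a subunit of the proteasome activator, was at -0.89 (-1.06 to -0.73), while its partner Psme2 was at -0.20 (-0.61 to 0.20). Psmb8, the neighbouring immunoproteasome subunit, was at -0.88 (-1.03 to -0.73), and Nlrc5, the transactivator of class I genes, at -0.84 (-1.10 to -0.59). They were named beside Psmb9 after their values were seen. In Cx30-/- against C57BL6 WT the pathway genes had a median of -0.10 with 0 past 2-fold, and against C57BL6-BALB/c WT a median of 0.31 with 0 past 2-fold.

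The expressed class II chains kept to a narrow band. The normalized count of H2-Aa was 679.4 in C57BL6 WT, 422.3 in C57BL6-BALB/c WT and 542.4 in Cx30-/-. H2-Ab1, its beta chain partner, had 640.1, 385.6 and 521.4, and H2-Eb1 had 572.8, 360.8 and 475.2. All 3 were highest in C57BL6 WT and lowest in C57BL6-BALB/c WT. Their log2 ratios between the wild type libraries were -0.69 (-0.86 to -0.51), -0.73 (-0.92 to -0.55) and -0.67 (-0.86 to -0.47). For these genes too, whether reads of alleles outside the reference were lost was not tested. With H2-Ea-ps, which has no finite ratio to C57BL6 WT, ranked highest, the 4 class II chains had a median of -0.68 between the wild type libraries. The median was -0.28 for Cx30-/- against C57BL6 WT. Against C57BL6-BALB/c WT, where H2-Ea-ps was at 0.29, it was 0.38. H2-Ea-ps thus differed from the other class II chains in the wild type comparison, in which it alone lay above 0.

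The genes that serve class II lay on both sides of 0 between the wild type libraries. Cd74, the invariant chain, had 1468.7, 1152.5 and 1345.9 normalized counts, a log2 ratio of -0.35 (-0.46 to -0.24) between the wild type libraries. Ciita, the master regulator of class II genes, had its highest value in the library in which H2-Aa, H2-Ab1 and H2-Eb1 were lowest, with 129.2 in C57BL6 WT, 183.6 in C57BL6-BALB/c WT and 94.4 in Cx30-/-. Its log2 ratio was 0.51 (0.18 to 0.83) between the wild type libraries, -0.45 (-0.85 to -0.07) for Cx30-/- against C57BL6 WT and -0.96 (-1.34 to -0.58) for Cx30-/- against C57BL6-BALB/c WT, just inside 2-fold. Between 42.6% and 53.8% of the Ciita row had no read in each library. H2-DMa, a chain of the peptide exchange factor H2-DM, had 298.6, 341.3 and 285.3 normalized counts. Its partner chain H2-DMb1 had only 60, 25 and 31 counts, a log2 ratio of -0.96 (-1.69 to -0.26) between the wild type libraries, and 27.2% of its windows also occur in H2-DMb2. The median of the 4 genes was -0.08 between the wild type libraries, with 2 above 0 and 2 below, and -0.29 for Cx30-/- against C57BL6 WT, with 0 above and 4 below. For Cx30-/- against C57BL6-BALB/c WT, in which H2-DMb1 was under the minimum, the median of the other 3 was -0.26.

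The class Ib and other class I-like genes, 12 of 24 past the minimum, were spread on both sides of 0. Their median log2 ratio was 0.05 between the wild type libraries, with 6 above 0 and 6 below. H2-T23 (Qa-1), which shows leader peptides to natural killer cell receptors, had 940.4, 719.4 and 972.5 normalized counts and a log2 ratio of -0.39 (-0.53 to -0.25), on a transcript of which 29.8% of windows occur in other genes. H2-T22, a ligand of some gamma-delta T cells, had 243.6, 189.0 and 241.3. H2-M3 had 331.8, 239.8 and 321.0, a log2 ratio of -0.47 (-0.71 to -0.23). For these 3 genes C57BL6 WT and Cx30-/- lay close together, and C57BL6-BALB/c WT was the lowest library. H2-T24, whose place is shared with Skp1a, had 833.9, 802.5 and 910.6 normalized counts, and its interval of -0.20 to 0.08 between the wild type libraries held 0.

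H2-M5 and H2-M6-ps, which lie near each other (chr17:36984061-36989537 and chr17:36969195-36971396, both minus strand), were higher in C57BL6-BALB/c WT. H2-M5 had 117.0, 210.6 and 141.6 normalized counts and a log2 ratio of 0.85 (0.52 to 1.18). H2-M6-ps, a pseudogene, had 53.3, 91.8 and 65.0 and a log2 ratio of 0.79 (0.29 to 1.28). Cx30-/- lay between the wild type libraries for both, and its intervals against C57BL6 WT held 0. Among their neighbours, Rnf39, a ring finger gene (chr17:36942918-36947986), had 102.2, 208.5 and 100.7 normalized counts, but Ppp1r11, Znrd1 and Znrd1as, which lie between Rnf39 and H2-M6-ps, had log2 ratios of -0.45, -0.35 and -0.25 between the wild type libraries.

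The Q genes with near-identical copies can only be read as groups. H2-Q4 had 1402.4, 1312.3 and 1503.3 normalized counts, and H2-Q7, which encodes the Qa-2 antigen together with H2-Q6, had 928.2, 1028.3 and 1154.0. The row with the most counts for H2-Q7 shares its place in the tables with H2-Q4, so that the 2 values are not separate. The longest row of H2-Q7, at a place of its own, had 234, 144 and 131 counts, which gave log2 ratios of -0.40 and -0.57 to C57BL6 WT in place of 0.15 and 0.31. H2-Q6 had 319.6, 247.3 and 210.9 normalized counts, with Cx30-/- lowest (-0.60 against C57BL6 WT, -0.86 to -0.35). H2-Q1 had 66.4, 77.8 and 92.3. H2-Ke6, whose symbol comes from its place in the region and which encodes a hydroxysteroid dehydrogenase, had 884.6, 792.8 and 879.1, with a log2 ratio of -0.16 (-0.30 to -0.02) between the wild type libraries.

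**Figure D3:**
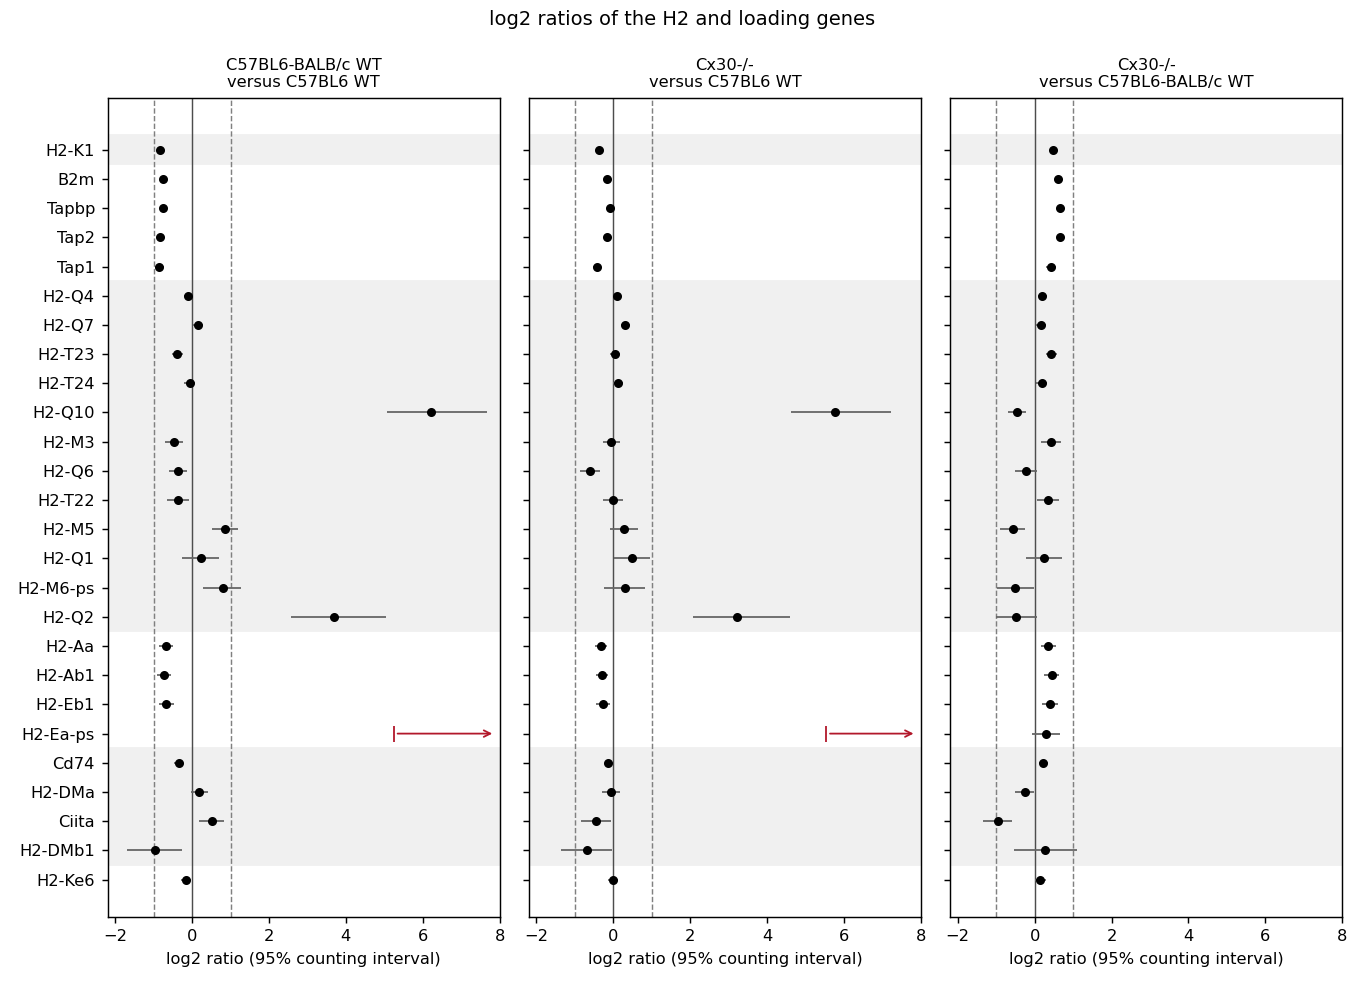
log2 ratio of normalized counts (horizontal axis) of each gene in the 3 comparisons, with its exact binomial 95% interval for read sampling. Dashed lines mark 2-fold, and the red bar with an arrow is the lower bound of H2-Ea-ps against C57BL6 WT without a read. H2-Ea-ps, H2-Q10 and H2-Q2 lie to the right of 2-fold in both comparisons with C57BL6 WT, and no gene lies past 2-fold between Cx30-/- and C57BL6-BALB/c WT.

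For the deletion of Cx30, the result depended on the wild type library used. Against C57BL6 WT, H2-Ea-ps, H2-Q10 and H2-Q2 were the 3 of 26 genes at least 2-fold higher in Cx30-/-, and 0 were lower (11.5%). Without genes whose row shares its place with another H2- gene or with 2410017I17Rik, 1 was higher, H2-Ea-ps. Among all 14776 genes compared, 2.68% were past 2-fold, 1.42% higher and 1.26% lower. The median log2 ratio of the 26 genes was -0.06, and 12 of the 23 genes within 2-fold had an interval below 0, 2 above and 9 over 0. The like shares of intervals over all genes were not taken. The lowest with an interval clear of 0 were H2-DMb1 at -0.69 (-1.36 to -0.04), H2-Q6 at -0.60 and Ciita at -0.45.

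Against C57BL6-BALB/c WT, 0 of 25 genes were past 2-fold in either direction, beside 8.69% of all 14891 genes (3.96% higher and 4.73% lower). The median log2 ratio was 0.25, and the intervals of 15 genes were above 0, of 5 below 0 and of 5 over 0. Here too the shares of intervals over all genes were not taken. The highest values were those of Tap2 at 0.67 (0.57 to 0.77) and Tapbp at 0.67 (0.61 to 0.74), followed by B2m at 0.60 (0.57 to 0.64) and H2-K1 at 0.47 (0.41 to 0.52). Each was intermediate in Cx30-/- between the wild type libraries. Both comparisons use the same Cx30-/- library, and those with C57BL6 WT share that library, so none of them is independent of the others.

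Neighbours of the H2 genes were summarised in the same way. They were set apart by symbol alone, so genes with sequence in common with H2- genes, such as Gm7030 with H2-M5, were kept. Of 124 other protein-coding genes within the span of the H2- genes (GRCm38 chr17:33974659-37483552), 79 passed the minimum, Gm7030 among them, with a median log2 ratio of -0.01 between the wild type libraries, 2 higher and 1 lower (3.8%). The 2 higher were Gm8909, with 75.3% of its row bare in C57BL6-BALB/c WT, and Rnf39 (1.03, 0.69 to 1.37). Next came Aif1, a microglial gene, at 0.54 (0.11 to 0.98). The lowest were Psmb9, Psmb8 and Lsm2, an RNA-binding protein gene, at -0.84 (-1.23 to -0.46). For Cx30-/- against C57BL6 WT the median was 0.07 with 2 higher and 0 lower (Gm8909 and Msh5), and against C57BL6-BALB/c WT it was 0.08 with 2 higher (Lsm2 and BC051142) and 1 lower (Rnf39).

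Markers of several cell types differed between the libraries along with the H2 genes. All 10 endothelial markers were lower in C57BL6-BALB/c WT than in C57BL6 WT (median -0.67), with Cldn5, the main claudin of the blood-brain barrier, past 2-fold at -1.09 (-1.12 to -1.06). Their summed level was 138553 normalized counts in C57BL6 WT, 84711 in C57BL6-BALB/c WT and 172142 in Cx30-/-. In Cx30-/- all 10 lay above C57BL6 WT (median 0.24), whereas all 4 class I loading genes lay below it (median -0.16). Against C57BL6-BALB/c WT the endothelial median was 0.87, with Slco1a4, Cldn5 and Ly6c1 past 2-fold higher. The microglia and macrophage markers, 12 of 12 past the minimum, summed to 8234, 5549 and 7721, with a median of -0.45 between the wild type libraries, and Mrc1, the mannose receptor of perivascular macrophages, was at 1.09 (0.93 to 1.25) in Cx30-/- against C57BL6-BALB/c WT. The order of these sums was that of H2-Aa, H2-Ab1 and H2-Eb1, but not that of each marker. Mrc1 (838.3, 497.9 and 1060.6 normalized counts) and Cd163 (187.7, 196.6 and 337.8), another marker of perivascular macrophages, were highest in Cx30-/-. Lyve1, also a marker of such macrophages, was highest in C57BL6 WT and kept the order of the class II chains (169.4, 86.4 and 113.3). Of the 12 markers, 5 lay above 0 for Cx30-/- against C57BL6 WT. The choroid plexus markers summed to 145433, 56293 and 76242, with 5 of 6 past 2-fold lower in C57BL6-BALB/c WT (Ttr, Folr1, Kl, Kcnj13 and Aqp1), and their sums had this order too. No marker in these lists was at 0 in any library.

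Dendritic cell markers, 5 of 8 past the minimum, summed to 2246, 2216 and 2371. B cell markers, with 0 past the minimum, summed to 74.2, 61.6 and 129, and T cell markers, with Cd4 alone past it, to 212, 146 and 155. The smooth muscle and pericyte list had a median of -0.16 between the wild type libraries, but its genes fell on 2 sides. The smooth muscle genes Cnn1 (0.89), Myh11 (0.74), Acta2 (0.56) and Tagln (0.49) were higher in C57BL6-BALB/c WT. The pericyte genes Kcnj8 (-0.97), Pdgfrb (-0.70), Rgs5 (-0.68) and Abcc9 (-0.59) were lower, as H2-K1 and its loading genes were. Pericyte markers did not all go this way, since Cspg4 was at 0.17 (0.09 to 0.25) and Anpep at -0.49 (-0.63 to -0.34). The median was 0.01 for the astrocyte list and 0.20 for the neuron list. The part that any of these cell types had in the H2 values was not tested.

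The promoters of these genes share short elements. In the RefSeq promoters of build GRCm38.p6, 33 of the 42 genes were found, and 250 bases before each start were searched on both strands for CCAAT (bound by NF-Y), TGACG (the core bound by CREB-like factors) and the element of interferon regulatory factors (IRF), written as GAAA, any 2 bases and GAAA. The 33 genes had 36 promoters, as some have more than 1 start. CCAAT stood in 30 of the 33 genes and in 32 of the 36 promoters, against 33.8% of 32851 promoters of all genes. In 27 of the genes it lay within 100 bases of a start, beside 18.9% of all promoters. TGACG stood in 13 of 33 genes and 14 of 36 promoters (17.8% of all promoters). In the form searched, the IRF element stood in 3 of 33 genes, B2m, H2-T22 and H2-T23, and in 3 of 36 promoters (2.98% of all). Other forms of it were not searched for, so genes without a match here may still hold one. Because the genes are copies of a few ancestors, they do not count as separate instances. The 3 genes without CCAAT were H2-M5, H2-Q10 and H2-T3.

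The 150 bases before the start are shown for B2m (chr2:122147537-122147686, plus strand), H2-K1 (chr17:34000334-34000483, minus strand, the downstream one of its 2 starts), H2-Aa (chr17:34287824-34287973, minus strand), H2-Eb1 (chr17:34305717-34305866, plus strand) and H2-Q10 (chr17:35469939-35470088, plus strand). They stand for the class I pair, the class II chains and the class I gene whose row differed most. Whether the reads on that row came from H2-Q10 was not tested. Capitals mark the motifs in the forms searched, with CCAAT read as ATTGG and TGACG as CGTCA where they lie on the other strand. In H2-Aa the 2 forms of TGACG overlap.
B2m: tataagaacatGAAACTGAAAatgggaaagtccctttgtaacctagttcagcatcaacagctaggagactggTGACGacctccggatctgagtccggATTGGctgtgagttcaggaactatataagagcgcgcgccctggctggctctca
H2-K1: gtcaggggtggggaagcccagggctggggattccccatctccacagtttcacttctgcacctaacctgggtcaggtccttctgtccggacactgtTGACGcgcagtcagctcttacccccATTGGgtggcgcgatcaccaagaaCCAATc
H2-Aa: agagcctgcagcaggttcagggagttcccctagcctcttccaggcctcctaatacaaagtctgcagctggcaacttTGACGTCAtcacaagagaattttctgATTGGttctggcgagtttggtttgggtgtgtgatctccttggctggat
H2-Eb1: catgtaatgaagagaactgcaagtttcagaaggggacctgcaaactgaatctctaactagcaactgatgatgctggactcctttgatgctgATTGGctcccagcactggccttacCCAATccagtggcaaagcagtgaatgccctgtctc
H2-Q10: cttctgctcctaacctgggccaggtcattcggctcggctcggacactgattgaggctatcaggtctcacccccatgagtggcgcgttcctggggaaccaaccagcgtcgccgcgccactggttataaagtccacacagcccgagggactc
Among these, B2m, H2-K1 and H2-Aa have a TGACG upstream of a CCAAT, while H2-Eb1 has a pair of CCAAT motifs and no TGACG. These are the reference sequences of C57BL6 and say nothing of the other haplotype.

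**Figure D4:**
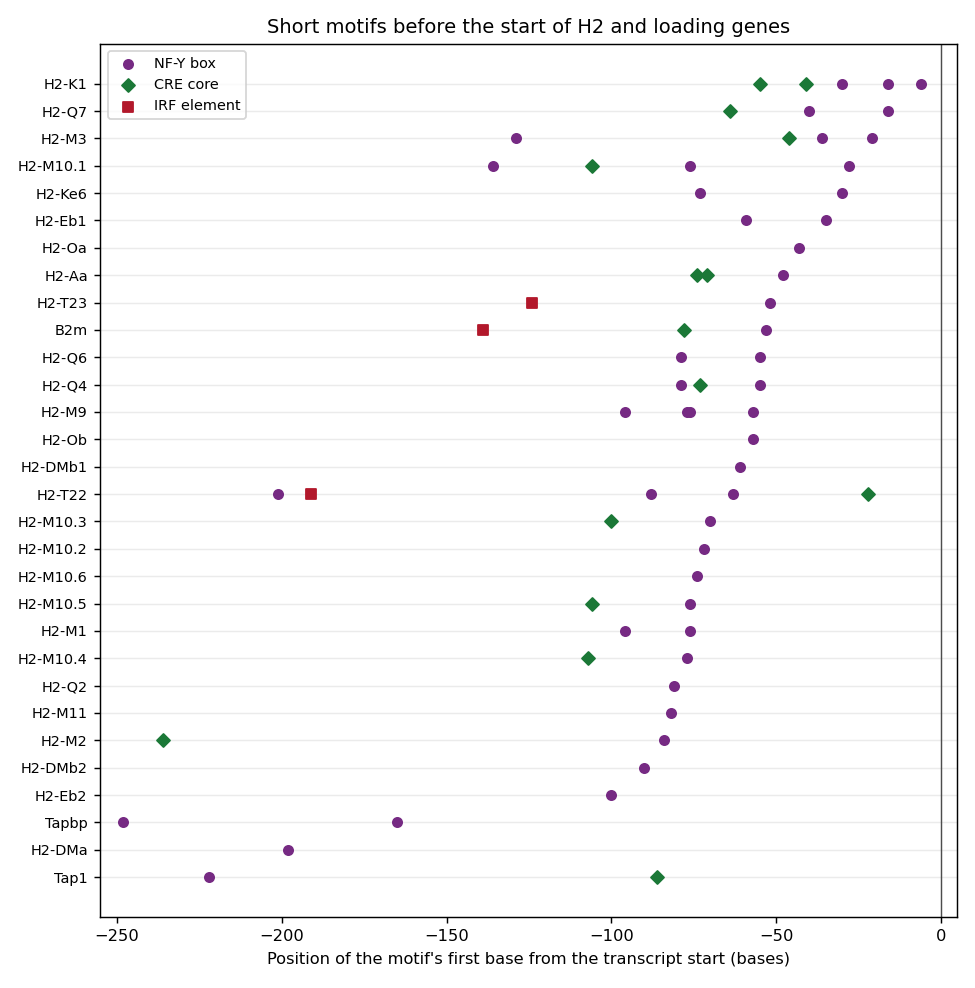
Position of each motif before the transcript start (horizontal axis, bases) in the 30 genes whose 250-base promoter holds a CCAAT, ordered by the CCAAT nearest to the start. Circles are CCAAT (NF-Y box), diamonds TGACG (CRE core) and squares the IRF element in the form searched. In 27 of the genes a CCAAT lies within 100 bases of the start.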

How the data were processed

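The 3 libraries, each from the vessels of 3 pooled mice, were made from polyadenylated RNA and read as single reads of 50 bases without strand information. The authors ran Eoulsan 1.1.6 on the reads (CASAVA 1.8.2 is also named in the submitters' processing notes). Filters on length (over 11 bases) and mean quality (over 12), after trimming of undetermined ends, preceded alignment with Bowtie 0.12.7, and only reads with a single match were kept. The methods and labels name mm10, but the positions in the deposited tables exceed that build (197054592 on chromosome 1, against a last annotated position of 195323493), so the build behind them is not known. They then deposited, for each of 82813 Ensembl transcripts, raw counts of alignments on its exons, the count as a fraction of 1 library total (20654144 to 24830975), the transcript length and the number of bases without a read. A read on a shared exon was counted for every transcript that holds it, and a read that differed too much from the reference was lost, both of which bear on H2 genes.

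Transcript identifiers were named through GENCODE M21 (69375 rows, 83.8%), and coordinates are those of GENCODE M21 on GRCm38, found through the identifiers. Each gene took its row with the largest total count. Size factors (median of ratios) then scaled the deposited counts. A gene entered a comparison if either library reached 50 normalized counts, and a ratio of at least 2 was called past 2-fold, without a pseudocount. The 95% intervals are Clopper-Pearson intervals of the 2 counts (scipy 1.17.1) and cover counting error only, as do the floors of 3 counts. No replicate test was possible with 1 library per group. Analysis used Python 3.11.15, numpy 2.4.6, pandas 2.3.3, matplotlib 3.10.9 and, for TMM factors only, edgeR 4.0.16 in R 4.3.3. The ratio step was tested on simulated data.

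Every gene of the H2 set past the minimum is named. Of the other lists, genes past 2-fold in any comparison are named, and of the H2 region the 3 highest and 3 lowest between the wild type libraries. Other genes of these lists, such as smooth muscle, pericyte and macrophage markers and neighbours of Rnf39, were named after their values were seen. The genes and lists were chosen with earlier results of these data known. Alternatives were other normalizations, count minimums, folds and rows of a gene, and a pseudocount of 1. Leaving out genes that share their place with another H2- gene or with 2410017I17Rik was an alternative chosen after the data were seen. It kept H2-K1, B2m, Tap2 and H2-T24, which share their places with other named genes.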

Additional observations from a re-analysis of the deposited data

Results flagged for a closer look

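A transcript row without a gene name, ENSMUST00000087173, lies among the H2 genes in the tables and had 8324 counts in C57BL6 WT, 6805 in C57BL6-BALB/c WT and 8560 in Cx30-/-. It is listed because it had the most counts of the 89 unnamed rows there and enters no comparison. Its normalized counts were 7268.6, 7350.2 and 8979.9, on a row of 1743 bases, so that C57BL6-BALB/c WT was not its lowest library, unlike H2-K1.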

How the results depend on the processing

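With 1 library per group no difference has a replicate check, and depth limits H2-Q10 and H2-Q2, whose ratios rest on 6 and 7 counts in C57BL6 WT. Without a count minimum, 11 of 37 genes (6 higher, 5 lower) were past 2-fold between the wild type libraries. The count was 8 for Cx30-/- against C57BL6 WT and 5 for Cx30-/- against C57BL6-BALB/c WT. With a fold of 1.5, the counts were 14 of 26 genes (5 higher, 9 lower), 5 and 4 in the same order. The like shares over all genes were not taken at either setting, so these counts cannot be called particular to the H2 set. Without genes that share their place with another H2- gene or with 2410017I17Rik, 1 gene was past 2-fold in each comparison with C57BL6 WT, H2-Ea-ps. Total count (4 genes, with H2-DMb1 lower, between the wild type libraries), TMM, upper quartile and pairwise size factors, a pseudocount of 1 and the other minimums and folds left each count within 1.5 times of its value, and the median log2 ratios stayed between -0.34 and -0.42, -0.01 and -0.08, and 0.24 and 0.32. Of 532 values of single genes under alternatives, 521 moved by less than their interval, 11 moved by more and 0 changed sign where past 2-fold. The largest move was 0.88, for H2-Q7 in its longest row, and the sum of its rows put H2-Q1 at 0.92 and 0.95 against C57BL6 WT. No paired analysis was possible because each group has 1 library.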
